A study of Mus musculus with 38 samples.

Results

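The 7 genes described here encode antimicrobial proteins of Paneth cells, or an enzyme that processes them, measured in intestinal organoids whose genotype labels cover the nuclear receptors PPARα (Ppara) and PPARδ (Ppard), with or without a PPARδ agonist. They are Lyz1, Ang4, Mmp7, Itln1, Defa17, Defa24 and Defa30, and they were found by matching the Ensembl identifiers of the deposited count table to these symbols in the mouse GENCODE annotation of build mm10. All 7 were found among the 54352 genes of the table, and all 7 passed the filter on low counts that left 4729 genes to test. The organoids came from intestinal crypts of C57BL6 mice and were kept for 8 days and 2 passages in 65% matrigel with 1 uM GW501516 (GW), a synthetic PPARδ agonist, or with 0.1% DMSO as vehicle. The 4 genotypes were wild type (WT), Ppard-fl/fl (D), Ppara-null (A), and Ppard-fl/fl with Ppara-null (DA). The labels name no recombinase for the floxed Ppard allele, and nothing in them ties a library to an animal or culture, so p-values measure only the spread between these libraries, which may be technical. The 38 libraries comprised 5 WT, 5 D, 5 A and 4 DA grown in vehicle, with 5 WT, 4 D, 5 A and 5 DA grown in GW. For 1 GW library of D the title named D and the genotype label named both genes; it was kept in D by its title. Polyadenylated RNA was read as tags near the 3′ end of transcripts (high-throughput 3′ digital gene expression).

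Paneth cells sit at the base of small intestinal crypts beside the stem cells and release granules that hold antimicrobial proteins. Alpha-defensins are small peptides that damage bacterial membranes. They are made as inactive precursors, and in mice the metalloproteinase matrilysin, which Mmp7 encodes, cuts them to the active form. Lyz1 encodes lysozyme, which cleaves the bacterial cell wall. Ang4 encodes a secreted ribonuclease with bactericidal activity. Itln1 encodes intelectin, a lectin that binds sugars on microbial surfaces.

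Lyz1 (ENSMUSG00000069515) lies on the minus strand at chr10:117287797-117292868, and Ang4 (ENSMUSG00000060615) on the minus strand at chr14:51763878-51773590. Mmp7 (ENSMUSG00000018623) lies on the plus strand at chr9:7692090-7699585, and Itln1 (ENSMUSG00000038209) on the minus strand at chr1:171518122-171535294. The 3 defensin genes share chromosome 8 and its plus strand: Defa17 (ENSMUSG00000060208) at chr8:21655780-21656735, Defa24 (ENSMUSG00000064213) at chr8:21734494-21735471 and Defa30 (ENSMUSG00000074444) at chr8:21134642-21135598. All 7 are annotated as protein-coding.

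How well the defensin counts can be assigned to single genes depends on how far the 3 transcripts differ. Their coding sequences are each 279 bases long. The last 90 coding bases, all in exon 2 of 2, follow, from mm10, with capitals at the 7 positions where the 3 genes are not identical. The stretches lie at chr8:21656549-21656638 for Defa17, chr8:21735285-21735374 for Defa24 and chr8:21135411-21135500 for Defa30.
Defa17: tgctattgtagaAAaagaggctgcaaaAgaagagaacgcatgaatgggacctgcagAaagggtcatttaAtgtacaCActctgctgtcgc
Defa24: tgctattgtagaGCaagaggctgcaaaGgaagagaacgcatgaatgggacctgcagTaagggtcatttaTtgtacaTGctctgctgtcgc
Defa30: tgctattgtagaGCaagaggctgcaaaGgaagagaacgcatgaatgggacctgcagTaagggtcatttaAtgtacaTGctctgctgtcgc
Over the whole coding sequence Defa24 and Defa30 differed at 4 positions (98.6% identity), Defa17 and Defa30 at 8 (97.1%), and Defa17 and Defa24 at 12 (95.7%). In the last 300 bases of the transcript, where 3′ tags arise, 90.7% of the 31-base words of Defa17 also occurred in another gene, most often Defa3. That share was 64.1% for Defa30 and 58.1% for Defa24, 34.4% for Lyz1 (all shared with Lyz2), 31.1% for Ang4 (most often with Ang5), and 0% for Mmp7 and Itln1. The counts of the 3 defensins are therefore uncertain as values of single genes, since reads could be divided among near-identical copies.

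Total counts per library were 353347 to 577557, and 9660 to 11085 genes had a count. Ppara had 2 to 13 counts per WT library and 1 to 13 per D library, but 0 to 3 in each A or DA library. Ppard counts were 0 to 4 in all libraries and do not check the Ppard label at this depth. Libraries stood apart in ways the groups do not explain. The column names carry library numbers that fall into 1 to 36 (24 libraries) and 37 to 60 (14 libraries), and GW in D and vehicle in DA have 1 library each in the higher numbers. Xist, the RNA that coats the silenced X chromosome, outnumbered the Y-linked transcripts (Ddx3y, Eif2s3y, Kdm5d and Uty, summed) in 18 libraries, all numbered 1 to 36. Y-linked transcripts exceeded Xist in 20 libraries: all 14 of the higher numbers and 6 of the lower. Of these 6, 5 carry a suffix 2 in their names that no label explains. The suffix 2 libraries came from GW in WT, D, A and DA but from vehicle only in DA, so the treatments were not balanced over them. In each group 2 or 3 libraries were on the Xist side. The results below are given with these divisions where they bear on them.

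The 7 genes together took 0.897% to 1.79% of a library's counts, and the group means of this share ran from 1.19% to 1.35%. Levels are given as CPM, a library's counts scaled to a total of 1000000. Lyz1 in vehicle WT had 2014, 1178, 889, 1769 and 2270 CPM in the 5 libraries, and under GW it had 2183, 1366, 1210, 2149 and 2165 CPM. The libraries of the 2 treatments overlapped over most of their range, and the spread within a group was wide: 1624 ± 576 CPM in vehicle and 1815 ± 484 CPM under GW (SD, n = 5 each). Over all 8 groups the mean of Lyz1 ran from 1486 to 1815 CPM. Group means ran from 166 to 218 CPM for Mmp7 and from 849.6 to 1128 CPM for Itln1. They ran from 3255 to 3741 CPM for Defa17, from 4687 to 5596 CPM for Defa24 and from 904 to 1099.7 CPM for Defa30. The highest group mean was 1.15 to 1.33 times the lowest in each of these 6 genes. In Ang4 the group means ran from 112 to 372 CPM, a ratio of 3.32. The libraries of the 6 other genes overlapped across groups, while Ang4 was low in most, but not all, libraries of A and DA. Because organoids were measured whole, fewer Paneth cells and less RNA per cell cannot be told apart.

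**Figure D1:**
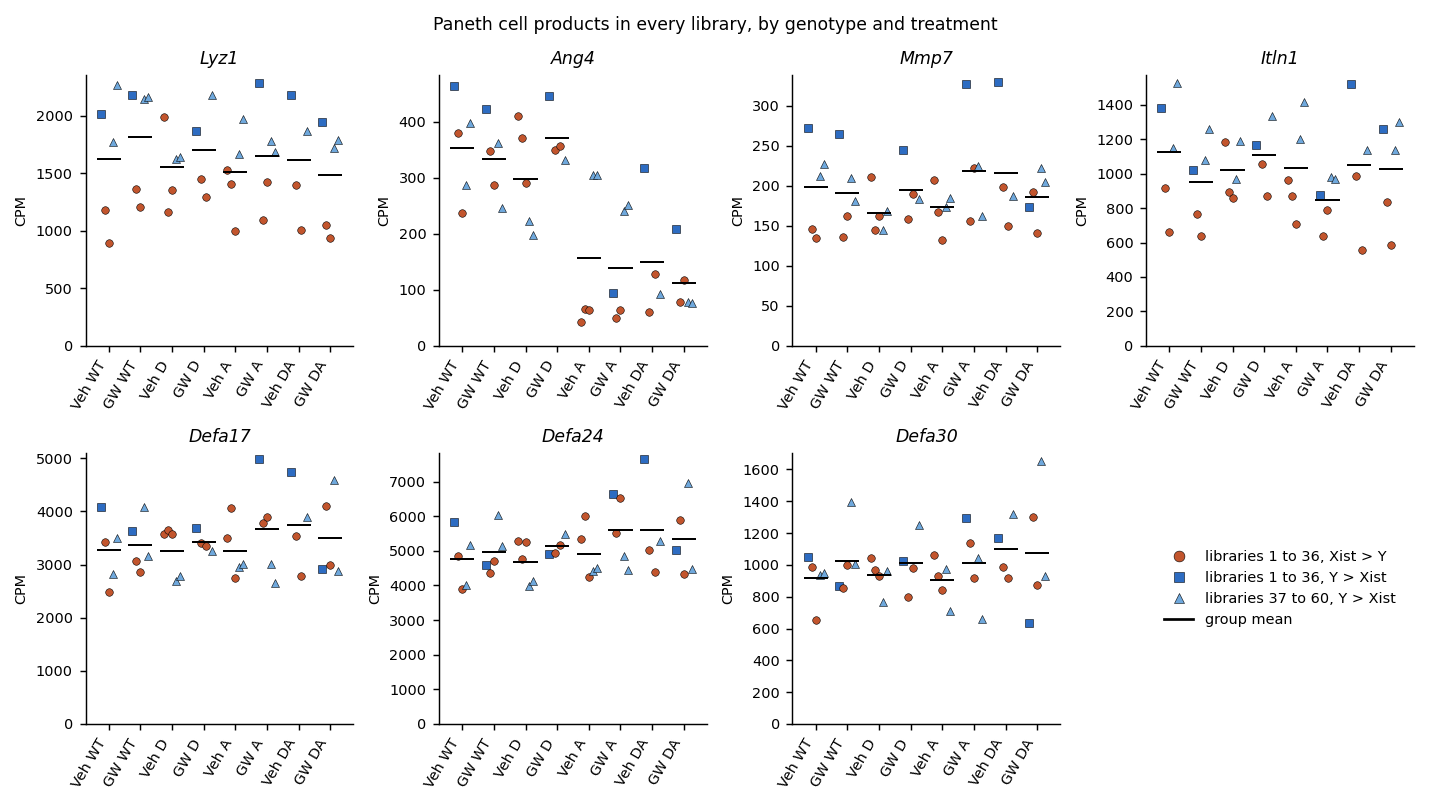
Level of each of the 7 genes in CPM (y axis, 1 panel a gene) in every library of the 8 genotype and treatment groups (x axis), with the group mean as a bar and symbols for library numbers and the X or Y side. The group means of 6 genes lie within 1.33 times of each other, and those of Ang4 run from 112 to 372 CPM with low libraries in A and DA.

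The first question was whether the agonist changed these genes. None of the 7 passed in any of the 8 GW comparisons by the quasi-likelihood test of edgeR, with p-values adjusted by Benjamini and Hochberg's method over all tested genes: GW against vehicle in each genotype, the response of D, A and DA each minus that of WT, and the mean effect over the 4 genotypes. The share of all tested genes called was 0.423% for GW in WT, 0.296% in A, and 0% in both D and DA. It was 0%, 0% and 0.0846% for the responses of D, A and DA minus WT, and 0.634% for the mean effect. Of the 56 values (7 genes in 8 comparisons) 0 had an unadjusted p under 0.05, and DESeq2 and limma also called 0. The values lay between -0.41 and 0.44 on the log2 scale.

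Averaged over the 4 genotypes, the GW effect on lysozyme (Lyz1) was 0.07 ± 0.11 (log2 fold change ± SE), with a 95% interval from -0.15 to 0.29. For the defensin-processing enzyme Mmp7 it was 0.07 ± 0.10, from -0.14 to 0.28. For the lectin Itln1 it was -0.12 ± 0.10, from -0.32 to 0.09. The intervals of these 3 genes all held 0 and left out a doubling. The defensins had 0.04 ± 0.09 for Defa17, 0.07 ± 0.08 for Defa24 and 0.10 ± 0.10 for Defa30, and the widest of their intervals reached from -0.10 to 0.29. The ribonuclease Ang4 was less precisely measured, at -0.10 ± 0.21 with an interval from -0.53 to 0.34. The lowest unadjusted p among the 56 values was 0.0766, for Mmp7 in A (0.36 ± 0.20). In numbers 1 to 36, GW in A had 1 library on the Y-linked side, at 327 CPM of Mmp7. The 3 libraries of vehicle A in these numbers were all on the Xist side. Without 1 library the value ran from 0.16 to 0.47. The agonist's effect on other genes of the same libraries gives the scale. Angptl4, a PPAR target that encodes an inhibitor of lipoprotein lipase, rose under GW by 1.95 ± 0.24 in WT (adjusted p = 9.43e-07, edgeR's quasi-likelihood test). Its value was 1.38 ± 0.24 in A (adjusted p = 0.00104), 0.90 ± 0.25 in D (adjusted p = 0.635) and 0.01 ± 0.25 in DA (adjusted p = 1.00).

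**Figure D2:**
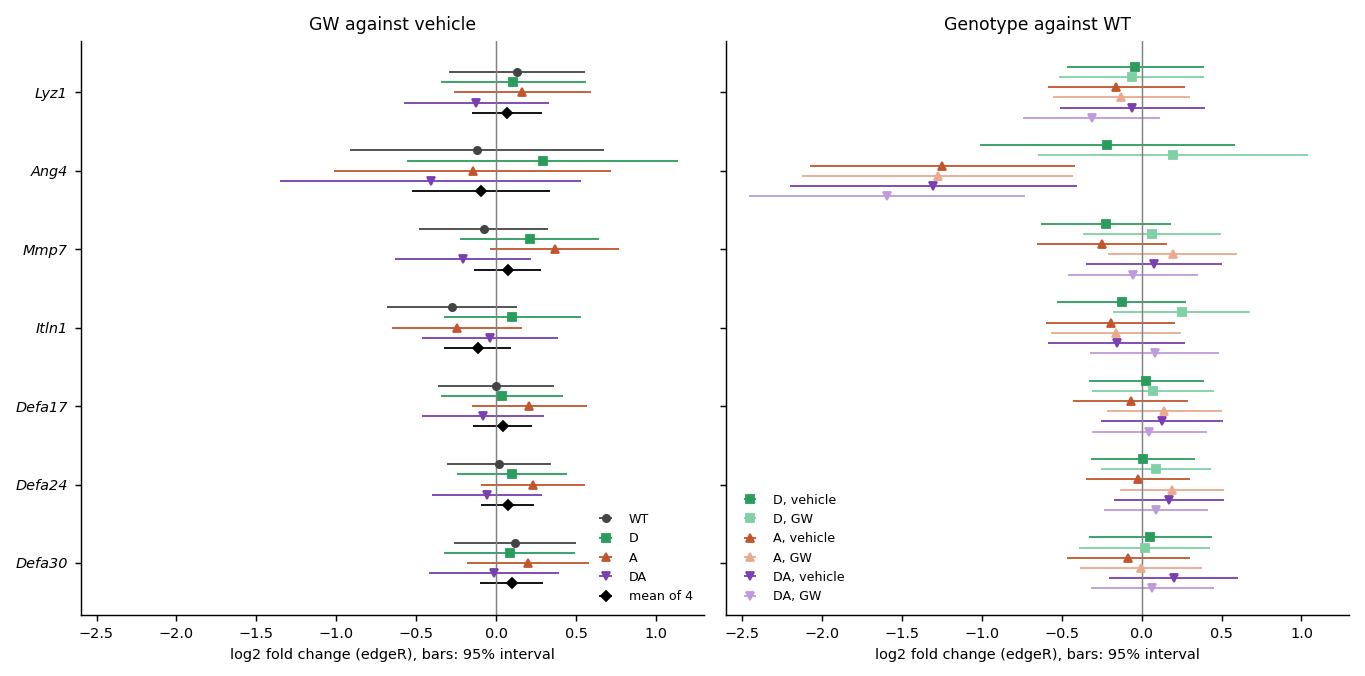
Log2 fold change of each of the 7 genes (points) with its 95% interval (bars) for GW against vehicle in the 4 genotypes and on average, and for D, A and DA each against WT in vehicle and under GW. All intervals of the GW values hold 0, and Ang4 in A and DA against WT lies at -1.25 to -1.59.

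The second question was whether the genotypes differed. With all libraries of a group pooled, 0 of 7 genes passed in any of the 6 comparisons of D, A or DA with WT by edgeR's quasi-likelihood test. The share of all tested genes called in vehicle was 0.0423% for D, 0.148% for A and 0.296% for DA, and under GW it was 0.0634%, 0.233% and 0.846%. For Lyz1, Mmp7, Itln1 and the 3 defensins the 36 values ran from -0.31 to 0.25. None of the 36 had an unadjusted p under 0.05, and DESeq2 and limma called 0 of them. The lowest unadjusted p was 0.148, for Lyz1 in DA under GW. Ang4 differed from this pattern: its unadjusted p was under 0.05 in each of the 4 comparisons of A or DA with WT. The call of Ang4 in DA under GW turned on the setting. DESeq2 did not make it (adjusted p = 0.0717), nor did edgeR within numbers 1 to 36 (0.0834) or without the suffix 2 columns (0.0595). It was made by limma (adjusted p = 0.0491), and by edgeR with a block for the ranges of library numbers (0.0378), a block for 6 smaller sets of numbers (0.0191), the X or Y side as a term (0.0264), only the groups compared (0.000913), no filter on low counts (2.05e-15) and within 37 to 60 (4.46e-05).

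Ang4 had 463, 380, 238, 288 and 398 CPM in the 5 vehicle libraries of WT and 422, 347, 287, 363 and 247 CPM in the 5 GW libraries. In D it had 411, 371, 291, 222 and 197 CPM in vehicle and 446, 350.4, 357 and 333 CPM under GW. All 19 libraries of these 2 genotypes held at least 197 CPM. In A it had 42.7, 66.1, 63.7, 305.7 and 305.5 CPM in vehicle and 93.5, 48.6, 63.1, 241 and 251.2 CPM under GW. The 6 libraries of A numbered 1 to 36 were all below every WT and D library, and the 4 numbered 37 to 60 were inside the WT range. In DA it had 317, 59.3, 127 and 92.7 CPM in vehicle and 208, 78.5, 118, 78.9 and 76.2 CPM under GW. In DA 7 of 9 libraries were below every WT and D library, and the other 2, at 208 and 317 CPM, were on the Y-linked side of the lower numbers and carried the suffix 2.

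Fitted over all libraries, Ang4 against WT was -1.25 ± 0.41 in vehicle A (adjusted p = 0.598), -1.28 ± 0.42 in A under GW (0.538), -1.30 ± 0.44 in vehicle DA (0.464) and -1.59 ± 0.43 in DA under GW (0.0606). Leaving out replicate 1 of vehicle DA, the library at 317 CPM, moved the vehicle DA value to -1.99. Leaving out replicate 1 of GW in DA, the library at 208 CPM, brought DA under GW to -1.91 with an adjusted p of 0.0330. D against WT was -0.21 ± 0.40 in vehicle and 0.20 ± 0.42 under GW. The 95% interval in vehicle D reached from -1.01 to 0.58. Because the libraries of A fell apart by library number, the genotypes were also compared within each range of numbers, averaged over both treatments; these comparisons were added after the values were seen.

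Within numbers 1 to 36 Ang4 was lower in A than in WT by a log2 fold change of -2.54 ± 0.26 (adjusted p = 2.42e-08, edgeR's quasi-likelihood test). It was the 1 of 7 genes called there, where 1.42% of all tested genes were called. Within 37 to 60 the same comparison gave -0.26 ± 0.26 (adjusted p = 1.00), with 0 of 7 genes called against 0.0634% of all. The difference between the ranges was 2.28 ± 0.37 (adjusted p = 0.000666), again for 1 of 7 genes against 0.317% of all. The ranges were set apart after the libraries of A were seen to fall apart by number, so this test describes these libraries and is no independent support. In DA it was lower in both ranges: -1.31 ± 0.23 in 1 to 36 (adjusted p = 0.000522) and -1.94 ± 0.34 in 37 to 60 (adjusted p = 0.00144). Ang4 was the 1 gene of 7 called in each, against 0.973% and 0.571% of all tested genes. The difference between the ranges in DA was -0.63 ± 0.41 (adjusted p = 0.993), where 0% of tested genes were called. In D against WT, 0 of 7 genes were called in 1 to 36, in 37 to 60 or in their difference, against 0.148%, 0.0423% and 0% of all tested genes. None of the 7 had an unadjusted p under 0.05 in those 3 comparisons in D, and DESeq2 and limma also called 0. The calls of Ang4 in A and DA within the ranges held in DESeq2, in limma and without each library in turn where the comparison could still be made. They held too with the X or Y side as a term, at -2.43 for A and -1.39 for DA in 1 to 36 and -1.94 for DA in 37 to 60. The 37 to 60 value in DA rests on 1 vehicle library and 2 GW libraries. Few markers of other cell types were called in the same comparisons: of 9 enterocyte markers only Fabp1, and of 7 goblet markers only Zg16. The enterocyte gene Fabp1, which encodes a fatty acid binding protein, was lower in A of 1 to 36 by -0.86 ± 0.21 (adjusted p = 0.0274, edgeR's quasi-likelihood test), in DA of 1 to 36 by -1.40 ± 0.22 (0.000129) and in DA of 37 to 60 by -2.01 ± 0.32 (0.000401). The goblet gene Zg16 was higher in A of 1 to 36 by 0.77 ± 0.20 (0.0330). The part of these cell types in the Ang4 values was not tested.

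**Figure D3:**
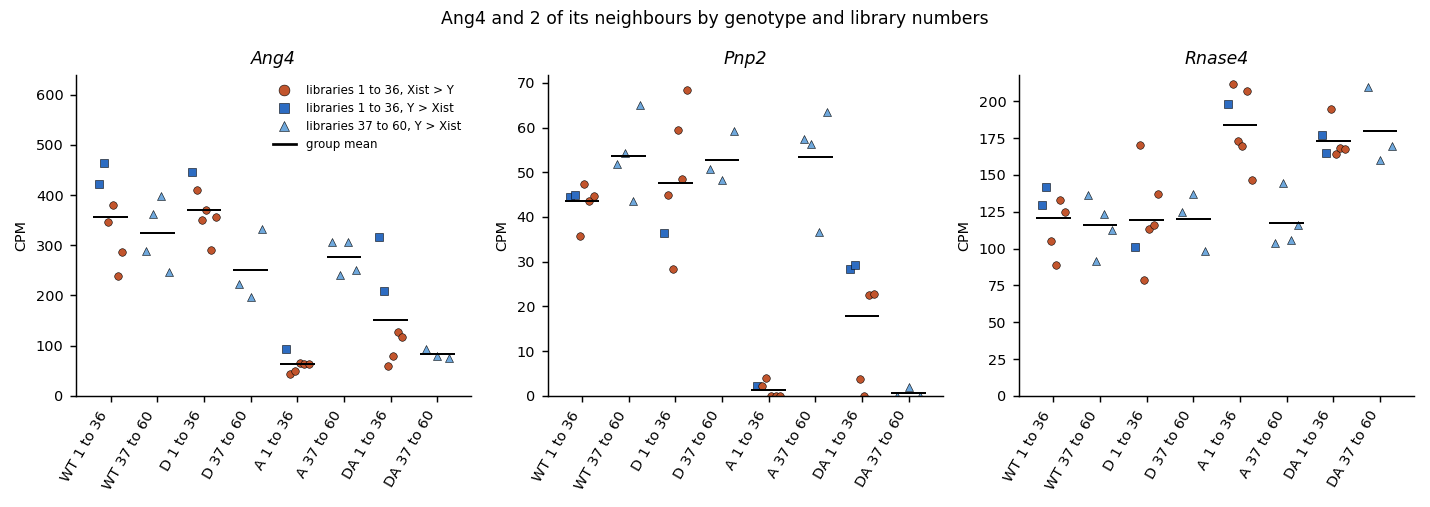
CPM (y axis) of Ang4 and its neighbours Pnp2 and Rnase4 in every library, by genotype and range of library numbers (x axis), with symbols for the X or Y side and bars for means. The 6 libraries of A numbered 1 to 36 hold 42.7 to 93.5 CPM of Ang4, and the 4 numbered 37 to 60 hold 241 to 305.7 CPM.

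Some genes near Ang4 on chromosome 14 followed its level, in either direction. Within 1 Mb on each side 17 other tested genes are annotated, and 6 of them had a Pearson correlation with Ang4 above 0.6 in size across the 38 libraries of log2 CPM. That is 35.3%, against 55 of 4728 tested genes (1.16%) in all. These values describe 38 libraries that share their genotype and library number groups, and no test was made of them. Among named genes, Pnp2, which encodes a purine nucleoside phosphorylase, had r = 0.90, Ang r = 0.72, Pnp r = 0.67, Parp2 r = 0.64 and Rnase4 r = -0.70. Ang and Rnase4, which encode other ribonucleases of the same family, overlap on the chromosome, so reads from them may be hard to assign. Pnp2 is annotated within Pnp (chr14:50931082-50965237), so the same may hold for that pair. The 5 named genes most like Ang4 were Pnp2, Ldb3 (0.82), Exoc1 (0.79), Hspa8 (0.76) and Serhl (0.75), and the first 2 of these are on chromosome 14. Of the 50 genes with the strongest correlation in size, 9 are on chromosome 14, which holds 3.87% of tested genes.

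Pnp2 (chr14:50955992-50964749) separated the libraries more sharply than Ang4. It had 16 to 33 counts per library in WT and 13 to 32 in D, but 0 to 2 in the 6 libraries of A numbered 1 to 36. The 4 libraries of A numbered 37 to 60 had 20 to 31 counts. In DA it had 0 to 14 counts in numbers 1 to 36 and 0 or 1 in 37 to 60. Against WT, Pnp2 was lower in A of numbers 1 to 36 by -4.85 ± 0.56 (adjusted p = 3.50e-07, edgeR's quasi-likelihood test). In A of 37 to 60 it was -0.05 ± 0.34 (adjusted p = 1.00). The same libraries of A were thus low in both genes, while Ppara counts were 0 to 2 in the lower and 2 or 3 in the higher numbers of A. Within the 19 libraries of WT and D, Pnp2 and Ang4 had r = -0.07. The part of the library numbers and of the chromosome 14 neighbours in the low Ang4 was not tested.

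Stretches of 250 bases before the start site are shown for Ang4, which was low in most A and DA libraries, for Lyz1, which was not called in any genotype comparison, and for Defa30. They come from RefSeq (GRCm38.p6) and are written 5′ to 3′ along the gene's strand. The Ang4 stretch is chr14:51773591-51773840 on the minus strand, that of Lyz1 is chr10:117292869-117293118 on the minus strand and that of Defa30 is chr8:21134400-21134649 on the plus strand. Capitals mark letters that matched a searched motif.
Ang4: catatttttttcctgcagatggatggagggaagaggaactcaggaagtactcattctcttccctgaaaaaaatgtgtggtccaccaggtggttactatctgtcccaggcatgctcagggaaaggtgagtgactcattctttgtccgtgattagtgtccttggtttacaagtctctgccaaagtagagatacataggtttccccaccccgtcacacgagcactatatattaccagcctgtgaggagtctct
Lyz1: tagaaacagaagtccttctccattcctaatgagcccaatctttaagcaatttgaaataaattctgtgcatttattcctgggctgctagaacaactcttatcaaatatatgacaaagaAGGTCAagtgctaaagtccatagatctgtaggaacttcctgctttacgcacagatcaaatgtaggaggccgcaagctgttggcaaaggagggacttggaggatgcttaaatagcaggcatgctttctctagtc
Defa30: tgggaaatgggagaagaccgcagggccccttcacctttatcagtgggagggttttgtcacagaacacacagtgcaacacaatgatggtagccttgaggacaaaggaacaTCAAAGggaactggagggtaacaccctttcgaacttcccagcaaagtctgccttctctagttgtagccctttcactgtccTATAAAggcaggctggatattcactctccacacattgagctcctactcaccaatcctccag
The table held start-site windows of 5 of the 7 genes, from 250 bases before to 50 after the start. Both strands were searched for 4 motifs. The half-site AGGTCA repeated in the same direction after 1 free base, a form of the element that PPARs bind, was in none of these windows and in 0.0396% of the 32851 windows of all genes. AGGTCA alone, which the first motif contains, occurred in Lyz1 at -133 and in 16.3% of all windows. CTTTGA, bound by TCF/LEF factors of the Wnt pathway, occurred in Defa30 (as TCAAAG, at -141) and in Mmp7, and in 16.0% of all windows. TATAAA occurred in Defa30 at -61 and in Mmp7, and in 13.6% of all windows. The windows of Ang4 and Itln1 held none of the 4 motifs.

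Of the 7 genes, 4 differed between libraries on the Y-linked side and on the Xist side of the same group and range of numbers. This comparison was added after the values were seen, and only 6 groups, all within numbers 1 to 36, hold both sides (not vehicle D or vehicle A). Lyz1 was higher on the Y-linked side by 0.72 ± 0.09 (adjusted p = 1.13e-05, edgeR's quasi-likelihood test). Mmp7 was higher by 0.60 ± 0.11 (0.00260), Itln1 by 0.54 ± 0.11 (0.00737) and Ang4 by 0.69 ± 0.16 (0.0166). These 4 of 7 compare with 1.63% of all tested genes. The 3 defensins did not pass: Defa17 had 0.18 ± 0.11 (0.443), Defa24 0.12 ± 0.10 (0.646) and Defa30 -0.02 ± 0.14 (0.978). DESeq2 and limma called 4 of 7 as well. In numbers 1 to 36 the 6 Y-linked libraries had 1871 to 2288 CPM of Lyz1, and the 18 Xist libraries had 889 to 1987 CPM, so the sides overlapped only slightly. Mmp7 had 173 to 329 against 132 to 222 CPM and Itln1 875 to 1523 against 557 to 1187 CPM, with more overlap. In numbers 37 to 60, all on the Y-linked side, Lyz1 had 1628 to 2269.8 CPM and Itln1 967.85 to 1528.3 CPM. Mmp7 had 144.24 to 227.54 CPM there, a range close to that of the Xist libraries, with a median of 186.03 CPM. Its medians in 1 to 36 were 268.42 CPM on the Y-linked side and 160.68 CPM on the Xist side. For Ang4 the median was 248.98 CPM in 37 to 60, against 369.66 CPM and 182.6 CPM on these 2 sides of 1 to 36.

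The side and the suffix 2 nearly coincide, since 5 of the 6 Y-linked libraries in numbers 1 to 36 carry that suffix. These 5 are also the lowest library numbers, 1 to 5, and the remaining Y-linked library is number 9. The side, the suffix and the place among the lowest numbers therefore cannot be told apart. With the suffix 2 libraries left out, replicate 1 of vehicle WT is the only Y-linked library of the lower numbers, and 0 of 7 genes passed, where 2 of 4846 tested genes (0.0413%) were called. The estimates were then 0.81 for Lyz1, 0.82 for Mmp7, 0.66 for Itln1 and 0.43 for Ang4. Without replicate 1 of vehicle DA, 2 of 7 were called, against 0.814% of all tested genes, and Lyz1 and Mmp7 were called whichever single library was left out. Beside these genes, 2 enterocyte markers were lower on the Y-linked side: Alpi, the intestinal alkaline phosphatase, by -0.78 ± 0.14 (adjusted p = 0.00166), and Fabp1 by -0.69 ± 0.15 (0.0123). Of the other enterocyte markers, 7 of 9 tested were not called. No goblet, enteroendocrine, stem or proliferation marker tested was called. Summed enterocyte markers were 11756 to 35074 CPM in the 6 Y-linked libraries and 10716 to 65145 CPM in the 18 Xist libraries. Their part in the result was not tested.

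**Figure D4:**
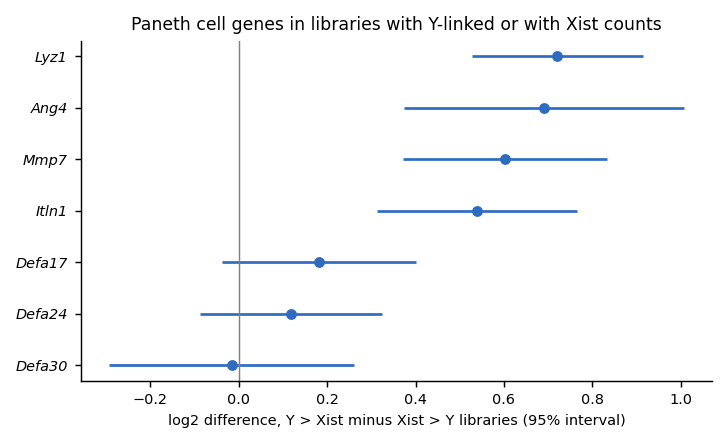
Log2 difference (x axis) of each of the 7 genes (y axis) between libraries on the Y-linked side and on the Xist side, within group and range of numbers, with 95% intervals as bars. Lyz1, Ang4, Mmp7 and Itln1 lie at 0.54 to 0.72 with intervals above 0, and the intervals of the 3 defensins hold 0.

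Between the ranges of library numbers themselves, averaged over the 8 groups, 22.4% of all tested genes were called, and 2 of the 7. Defa17 was lower in 37 to 60 than in 1 to 36 by -0.25 ± 0.08 (adjusted p = 0.0199, edgeR's quasi-likelihood test) and Defa24 by -0.20 ± 0.07 (0.0404). Lyz1 had 0.24 ± 0.11 (0.110) and Itln1 0.26 ± 0.10 (0.0635). A share of 2 in 7 is near the background. limma called 3 of 7, and the call of Defa24 was lost with the X or Y side as a term (0.0697). Without the suffix 2 columns, Lyz1 was 0.41 (0.000673) and Itln1 0.37 (0.00235), and with the X or Y term their signs turned, to -0.26 and -0.13. Many marker genes differed between the ranges too. Spink4, a trypsin inhibitor of secretory cells, was lower in 37 to 60 by -0.998 ± 0.095 (adjusted p = 7.87e-10, edgeR's quasi-likelihood test). Of 7 goblet markers, 4 were lower: Tff3, the trefoil factor, by -0.50 ± 0.08 (1.13e-05), Agr2 by -0.43 ± 0.08 (0.000178), Guca2a by -0.40 ± 0.10 (0.00448) and Zg16 by -0.39 ± 0.12 (0.0163). Fabp1 was lower by -0.52 ± 0.13 (0.00351). Among other Paneth secretory products, Reg3a was higher by 0.87 ± 0.24 (0.00896) and Dmbt1 by 0.48 ± 0.14 (0.0151), while Mptx2 (-0.59 ± 0.21, 0.0426) and Clps (-0.50 ± 0.16, 0.0192) were lower. The stem marker Ascl2 had -0.33 ± 0.10, the proliferation marker Rrm2 0.31 ± 0.10 and the enterocyte marker Vil1 0.30 ± 0.10, all called. Their part in the values of the 7 genes was not tested.

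The 7 genes did not vary as 1 block across libraries. Over the 38 libraries, 11 of the 21 pairs passed by Pearson's r and 10 by Spearman's rho (two-sided permutation tests, adjusted over the 21 pairs). All values share a library's depth and the total they were scaled to. The defensins followed each other: Defa17 and Defa24 had r = 0.92 and rho = 0.93, Defa17 and Defa30 r = 0.74 and rho = 0.75, and Defa24 and Defa30 r = 0.69 and rho = 0.75 (permutation p = 1e-05 for each r, the smallest the resampling can give). Reads shared among near-identical copies touch these 3 values. Lyz1 and Itln1 had r = 0.80 and rho = 0.75 (permutation p = 1e-05), with r = 0.78 in numbers 1 to 36 and 0.65 in 37 to 60. Without the 2 libraries farthest from the median the r was 0.75. Within the sides, Lyz1 and Itln1 had r = 0.80 in the 18 Xist libraries but only 0.37 in the 20 Y-linked ones. Lyz1 and Mmp7 had 0.65 and 0.70 there. Lyz1 and Mmp7 had r = 0.64 and rho = 0.62 (permutation p = 2e-05), with 0.81 and 0.45 within the ranges. Mmp7 followed both sets of genes, with r = 0.64 to Defa17, 0.61 to Defa24 and 0.45 to Defa30.

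Lyz1 and Itln1 had pooled r of only 0.02 to 0.22 with the 3 defensins, and 0 of these 6 pairs passed. Within the sides the r of Lyz1 with Defa17 was 0.52 in the 18 Xist libraries and 0.66 in the 20 Y-linked ones. Lyz1 with Defa24 had 0.52 and 0.64, so the low pooled values of these 2 pairs do not hold within the sides. Itln1 had 0.59 and 0.16 with Defa17 and 0.45 and 0.26 with Defa24. The r with Defa30 was 0.25 and 0.32 for Lyz1, and 0.26 and 0.01 for Itln1. Ang4 had r from -0.17 to 0.41 with the other 6 genes. Its pair with Itln1 passed by r (0.41, adjusted permutation p = 0.0213) and by rho (0.45, 0.0114). Its pair with Lyz1 passed by r (0.37, 0.0422) but not by rho (0.35, 0.0554). By the mean r over the 7 genes, the tested genes most like them were Defa3, another defensin (0.42), Utp14a (0.37), the membrane mucin Muc13 (0.37), mt-Nd4 (0.36) and Guca2a, which encodes guanylin (0.35). Defa3 shares most of its 3′ end with Defa17.

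**Figure D5:**
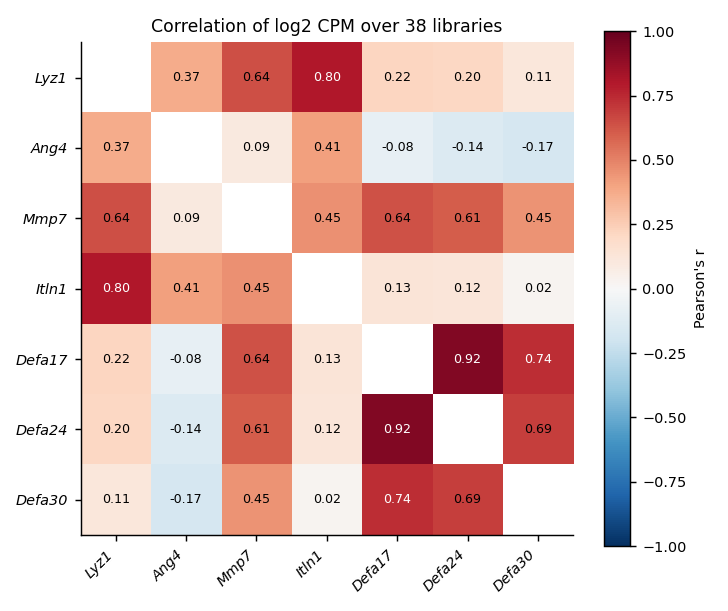
Pearson r of log2 CPM for the 21 pairs of the 7 genes over the 38 libraries. The 3 defensins form 1 block (0.69 to 0.92), Lyz1 and Itln1 are joined at 0.80, and Ang4 is between -0.17 and 0.41 with all others.

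Of 36 other alpha-defensin genes in the table, 17 passed the filter, and 0 of 17 were called in any of the 14 GW and genotype comparisons by edgeR's quasi-likelihood test. In these comparisons 0% to 0.846% of all tested genes were called, so a count of 0 in a short list is near the background. Of the 238 values of these defensins 11 (4.62%) had an unadjusted p under 0.05, against 4.73% over all tested genes, and the values ran from -2.30 to 3.68. Their median under GW, averaged over the genotypes, was 0.02, with 9 higher and 8 lower. The most abundant ones had mean GW effects of 0.03 ± 0.18 for Defa31, -0.02 ± 0.14 for Defa3, 0.09 ± 0.12 for Defa20 and 0.14 ± 0.14 for Defa37. Defa31 in A under GW was 1.11 ± 0.35 against WT, with an unadjusted p of 0.00253 that did not survive adjustment over all genes. Within the ranges of numbers, Defa32 was lower in DA than in WT in 1 to 36 (-1.81 ± 0.42, adjusted p = 0.0228). On the Y-linked side Defa35, with 31 counts or fewer in every library, was higher by 2.81 ± 0.73 (0.0386).

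Of the other Paneth secretory products, 10 of 16 listed genes were tested. Only Ang, which lies near Ang4, was called in the 14 comparisons, at -1.36 ± 0.32 in DA against WT under GW (adjusted p = 0.0237, edgeR's quasi-likelihood test). In that comparison 9 of the 10 were lower and their median was -0.37. The mean GW effect was 0.10 ± 0.17 for Spink4, -0.16 ± 0.10 for the immunoglobulin receptor Pigr, 0.15 ± 0.16 for Dmbt1 and 0.42 ± 0.13 for the lectin Reg3g (adjusted p = 0.241). Mptx1, which encodes a pentraxin, was singled out after its values were seen. It had 0 to 46 counts in the 6 libraries of A numbered 1 to 36, with a median of 21, against 0 to 3 in WT and D. It had 1 or 2 counts in A of 37 to 60 and 1 to 13 in DA. Within 1 to 36 it was higher in A than in WT by 4.21 ± 0.73 (adjusted p = 0.000431), and with all libraries of A under GW the value was 3.99 ± 1.07 (0.212). Of 20 genes of Paneth cell specification and niche only Cd24a and Xbp1 had enough counts to test, and 0 of 2 were called in the 14 comparisons. None of their 28 values had an unadjusted p under 0.05. Markers of other cell types were measured beside the 7 genes. Of 7 goblet markers 0 were called in the 14 comparisons, with 4 of 98 values at an unadjusted p under 0.05, and of 9 proliferation markers 0, with 6 of 126. Such values were more frequent among enteroendocrine (21 of 84, 25%), enterocyte (23 of 126, 18.3%) and stem markers (9 of 84, 10.7%). The other Paneth secretory products had 10 of 140 (7.14%), and all tested genes 4.73%. Of 9 enterocyte markers, Fabp1 was higher under GW in WT (1.19 ± 0.29, adjusted p = 0.0463, edgeR's quasi-likelihood test), in A (1.28 ± 0.29, 0.0275) and on average (0.74 ± 0.15, 0.00258). In DA under GW it was lower than in WT (-2.14 ± 0.30, 2.47e-05), as was Fabp2 (-0.83 ± 0.19, 0.0187). The enterocyte markers did not move together under GW: 4 were higher and 5 lower in WT and on average, and 5 higher and 4 lower in A. For DA against WT under GW, 3 were higher and 6 lower. Of 6 enteroendocrine markers, Reg4 was higher under GW in WT (1.68 ± 0.31, 0.00137) and in vehicle DA than in vehicle WT (1.53 ± 0.32, 0.0238), and its response in DA minus WT was -1.99 ± 0.43 (0.0420). Of 6 stem markers, Olfm4 was lower under GW on average (-0.77 ± 0.15, 0.00152). Summed markers of immune cells reached at most 8.58 CPM in a library, of tuft cells 4.28 CPM and of stromal cells 2.18 CPM.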

How the data were processed

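A count table by Ensembl gene and a table of log2 values were deposited. The submitters' processing notes name mm10, Salmon 1.1.0, edgeR 3.26.8 and R 3.6.2. The deposited log2 table was used only to check the counts: undoing the log gives 1000000 as every library's sum. Handling of molecular identifiers is not given in the sources used here. Names of 38 of the 57 columns give a treatment and a genotype of the labels, which placed them in groups. The other 19, with letters that no sample's title holds, were not used. Replicates are numbered in column order. Total counts were 353347 to 577557 per library (median 483740).

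Under R 4.3.3 the counts were filtered (filterByExpr by group), scaled (TMM) and tested with the quasi-likelihood functions of edgeR 4.0.16, in a single fit that held all 8 groups. Benjamini-Hochberg adjustment ran over the 4729 tested genes, and the threshold was 0.05. On simulated data for GW in WT over 4729 genes, 87 of 100 genes changed by a log2 fold change of 1 were called, and 100 of 100 changed by 2. Every simulated gene had the same dispersion, and only genes with higher mean counts were changed. Differences by library number or X or Y side were not simulated. Whether these shares hold for each of the 7 genes was not tested. In the measured data the SE for GW in WT was 0.39 for Ang4 and 0.16 to 0.21 for the other genes of the 7. Pooled Ang4 values of -1.25 to -1.59 in A and DA against WT were not called. For correlations, log2 CPM took a prior count of 2, and permutation tests took 100000 resamples. The alternatives were DESeq2 1.42.0, limma 3.58.1, no filter, only the groups compared, a block for library numbers, fits within library numbers, and leaving out the suffix 2 columns or each library. The 7 genes and the gene lists were chosen with earlier results of these data known. Comparisons within library numbers and by X or Y transcripts, and a block for 6 sets of library numbers, were added after the values were seen. Named beyond the 7 genes are Ppara, Ppard and Angptl4, up to 4 of the most abundant tested genes of a list, the 5 genes most alike, and some genes called in a list, chosen after their values were seen; the neighbours of Ang4 were chosen by position after its values were seen. Symbols, positions and transcripts come from GENCODE for mm10.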

Additional observations from a re-analysis of the deposited data

Results flagged for a closer look

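Defa30 had 1 high library among the 5 of GW in WT, at 1394 CPM, where the other 4 had 857 to 1007 CPM. It also had 1 low library among the 5 of vehicle in WT, at 652 CPM, where the other 4 had 936 to 1051 CPM. In both sets the gap to the nearest library exceeded Dixon's limit for 5 samples. The limit was applied to 56 sets of 1 gene in 1 group, 2 of them passed it, and chance alone passes about 1 in 20.

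Ang4 in A against WT differed between the ranges of library numbers. The difference, 37 to 60 minus 1 to 36, was 2.28 on the log2 scale, and it was tested by the quasi-likelihood test of edgeR (Benjamini-Hochberg adjusted p = 0.000666). The ranges were set apart after these values were seen. All 6 lower-numbered libraries of A were below every WT library, and all 4 higher-numbered ones were within the WT range.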

How the results depend on the processing

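For GW against vehicle and its differences between genotypes, 0 of 7 genes were called in any alternative run. For Lyz1, Mmp7, Itln1 and the 3 defensins, 0 of 1992 alternative fits of their 84 GW and genotype values were called. These fits reuse the same 38 libraries and are not independent of each other. In the main fits of these comparisons 0% to 0.846% of all tested genes were called, so a count of 0 is near the background. Ang4 in A and DA against WT kept its negative sign in all 79 pooled alternative fits. The number of the 7 genes called rose from 0 to 1, always Ang4, in these settings: A in vehicle and under GW with no filter and within numbers 1 to 36; DA in vehicle with no filter and within 37 to 60; and DA under GW with limma, no filter, only the groups compared, a block for library numbers, a block for 6 sets of them, the X or Y term and within 37 to 60. Leaving out 1 library gave 0 to 1 for DA under GW, with 1 without replicate 1 of GW in DA. The cause was not tested. Between the ranges of numbers the count was 2, where 1061 of 4729 tested genes were called. With no filter it was 4, where 882 of 20265 tested genes were called. Without 1 library it was 1 to 4, where 955 to 1092 of all tested genes were called. Between Y-linked and Xist libraries it was 4, 0 without the suffix 2 columns, where 1 Y-linked library of the lower numbers is left, and 2 to 4 without 1 library.

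Of the 98 GW and genotype values of the 7 genes, 66 changed sign in at least 1 alternative, and none of those 66 was called in any. Among the values given above, Ang4 in D in vehicle was 0.040 within 1 to 36. Without 1 library, Lyz1 for GW in WT ran from -0.019 to 0.26, Ang4 for GW in DA from -0.73 to 0.27 and for the mean GW effect from -0.18 to 0.072; with limma the last was 0.0095. The mean GW effect of Defa24 was -0.011 within 1 to 36, and with the block for 6 sets it was -0.042 for Lyz1 and -0.014 for Mmp7. With the X or Y term, the difference between ranges was -0.13 for Itln1 and -0.26 for Lyz1. On the Y-linked side, Defa24 ran from -0.0078 to 0.18 and Defa30 from -0.083 to 0.14 without 1 library, and Defa30 was 0.21 without the suffix 2 columns.

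Without a filter, calls over all genes rose in most comparisons, from 40 to 109 for DA under GW and from 20 to 45 for GW in WT. No paired analysis was possible because the columns carry no replicate numbers. Gaps in the library numbers leave 6 sets that each hold a group at most once. No label says what a set is, and a block for them was chosen after seeing the data. With it, calls over all genes rose from 40 to 91 for DA under GW, from 30 to 62 for the mean GW effect, from 14 to 26 for DA and from 7 to 14 for A in vehicle. Ang4 within the ranges was then -2.597 for A in 1 to 36, and -1.47 and -1.94 for DA in 1 to 36 and 37 to 60, all called. Comparisons within 37 to 60 cannot be made without the single library of vehicle DA or of GW in D. At these depths genes such as Ppard, with 0 to 4 counts, give no usable difference.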
